A study of Mus musculus with 8 samples.

Results

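Heat shock chaperones are a set of 10 genes whose proteins help other proteins to fold, and their RNA was followed in whole lungs across 4 groups of mice. The genes were chosen by name: Hsph1, Dnajb1, Hspa8, Hspa4l, Hspd1, Hspe1, Hsp90aa1, Hspb1, Chordc1 and Ahsa1. All 10 were measured, among 18820 genes with a probe set of 1 gene symbol. They have 18 such probe sets of 21218, and for each gene the brightest of them, by its mean over the 8 arrays, is described. The values are log2 expression levels, in which a difference of 1 is a doubling.

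Each array held the pooled whole-lung RNA of 3 FVB mice of 8 to 12 weeks, with the sexes evenly mixed, and each group had 2 pools. The CCSP-p52 LPS and WT LPS groups had received intratracheal LPS, a bacterial wall component that inflames the lung, 48 hours before sacrifice. The CCSP-p52 dox and WT dox groups had not. All mice of all 4 groups drank doxycycline (dox) at 2 g/L with 2% sucrose for 1 week. CCSP-p52 mice carry CCSP-rtTA, the repressor CCSP-tTS and (tet-O)7-FLAG-p52, so that dox induces FLAG-tagged p52, a transcription factor of the non-canonical NF-κB pathway, in the airway epithelium. The CCSP promoter is that of a club cell gene, so the transgene acts in a minority of the cells whose RNA was pooled. WT mice were littermates without the transgenes. The spread between the 2 pools of a group is the only replicate error, and it takes in mice, RNA and array together.

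Heat shock chaperones hold or refold unfolded proteins. HSP70 works with J-domain proteins, which bring it clients, and with nucleotide exchange factors, which release them; HSP90 takes over late folding of kinases and receptors; small heat shock proteins hold unfolded chains; and HSP60 with HSP10 forms the folding chamber of mitochondria. Many of these genes share a regulator, heat shock factor 1 (HSF1), which binds inverted repeats of the letters GAA, called heat shock elements, and they are known to rise together after heat or other damage to proteins.

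The promoters are shown for the repeats that such a regulator binds. RefSeq promoter windows on GRCm38.p6 were matched for 8 of the 10 genes, with 11 windows in all. Hspa8 and Hsp90aa1 were not matched. The 250 bases before each start were searched on both strands for GAANNTTC and for TTCNNGAA, each of which reads the same on both strands and which overlap in longer repeats. One or both were found for 4 of the 8 genes, Hsph1, Hspd1, Hspe1 and Hspb1, in 5 of the 11 windows, against 12.8% of 32851 windows of all genes. These 5 windows are not separate sites: both windows of Hsph1 hold the same match, and Hspd1 and Hspe1 share an element. Dnajb1, Hspa4l, Chordc1 and Ahsa1 had neither in these windows. Hspd1 and Hspe1 lie head to head on chromosome 1 with starts 216 bases apart, and the same element stands between these starts, read here from each gene's own strand with the repeat in capitals. RefSeq gives Hspd1 another start at 55088243, from which the 2 genes overlap and the element lies within Hspd1, and the window of that start had no match.
Hspe1, chr1:55088053-55088082, plus strand: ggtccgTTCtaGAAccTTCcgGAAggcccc
Hspd1, chr1:55088053-55088082, minus strand: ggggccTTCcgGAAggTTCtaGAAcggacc
Hsph1, chr5:149636351-149636380, minus strand: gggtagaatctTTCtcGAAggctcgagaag
Hspb1, chr5:135887769-135887918, plus strand: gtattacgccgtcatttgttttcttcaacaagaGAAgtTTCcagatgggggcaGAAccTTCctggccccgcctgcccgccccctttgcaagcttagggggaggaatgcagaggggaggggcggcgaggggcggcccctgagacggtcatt
The element between Hspd1 and Hspe1 has 4 units in a row, a form found in 7 windows (0.0213%) of all. Hsph1 has 1 pair of units in the stretch shown, and Hspb1 has 2 separate pairs in a stretch that ends at the last base before the gene start. A match of letters is not a measured binding site, and no binding was measured here.

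The arrays showed lung. The summed level of 7 alveolar type II markers was between 15.3 and 15.9 on the log2 scale on all 8 arrays. Nfkb2, the gene from which p52 comes, was at 11.28 and 10.53 in the CCSP-p52 LPS pools, against 10.83 and 10.56 in the WT LPS pools, which overlap. It was at 10.20 and 10.33 in the CCSP-p52 dox pools, against 9.51 and 9.58 in the WT dox pools, which do not. WT LPS pool 2 stood apart: its summed level of 12 skeletal muscle markers was 13.76, against 10.7 to 11.4 on the other 7 arrays, and that of 10 squamous epithelium markers was 14, against 9.64 to 9.80. The 2 pools of a group correlated at 0.981 to 0.996 over all probe sets with 1 gene symbol, lowest in the CCSP-p52 LPS and WT LPS groups.

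Levels differed widely between the 10 probe sets, but the levels of different probe sets depend on their probes and are not set against each other. Within a gene, the 8 arrays spanned between 0.36 (Hsp90aa1) and 1.27 (Hsph1) on the log2 scale. Hsph1, Dnajb1 and Chordc1 each spanned more than 1, and all 3 were highest in a CCSP-p52 dox pool and lowest in CCSP-p52 LPS pool 2.

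**Figure D1:**
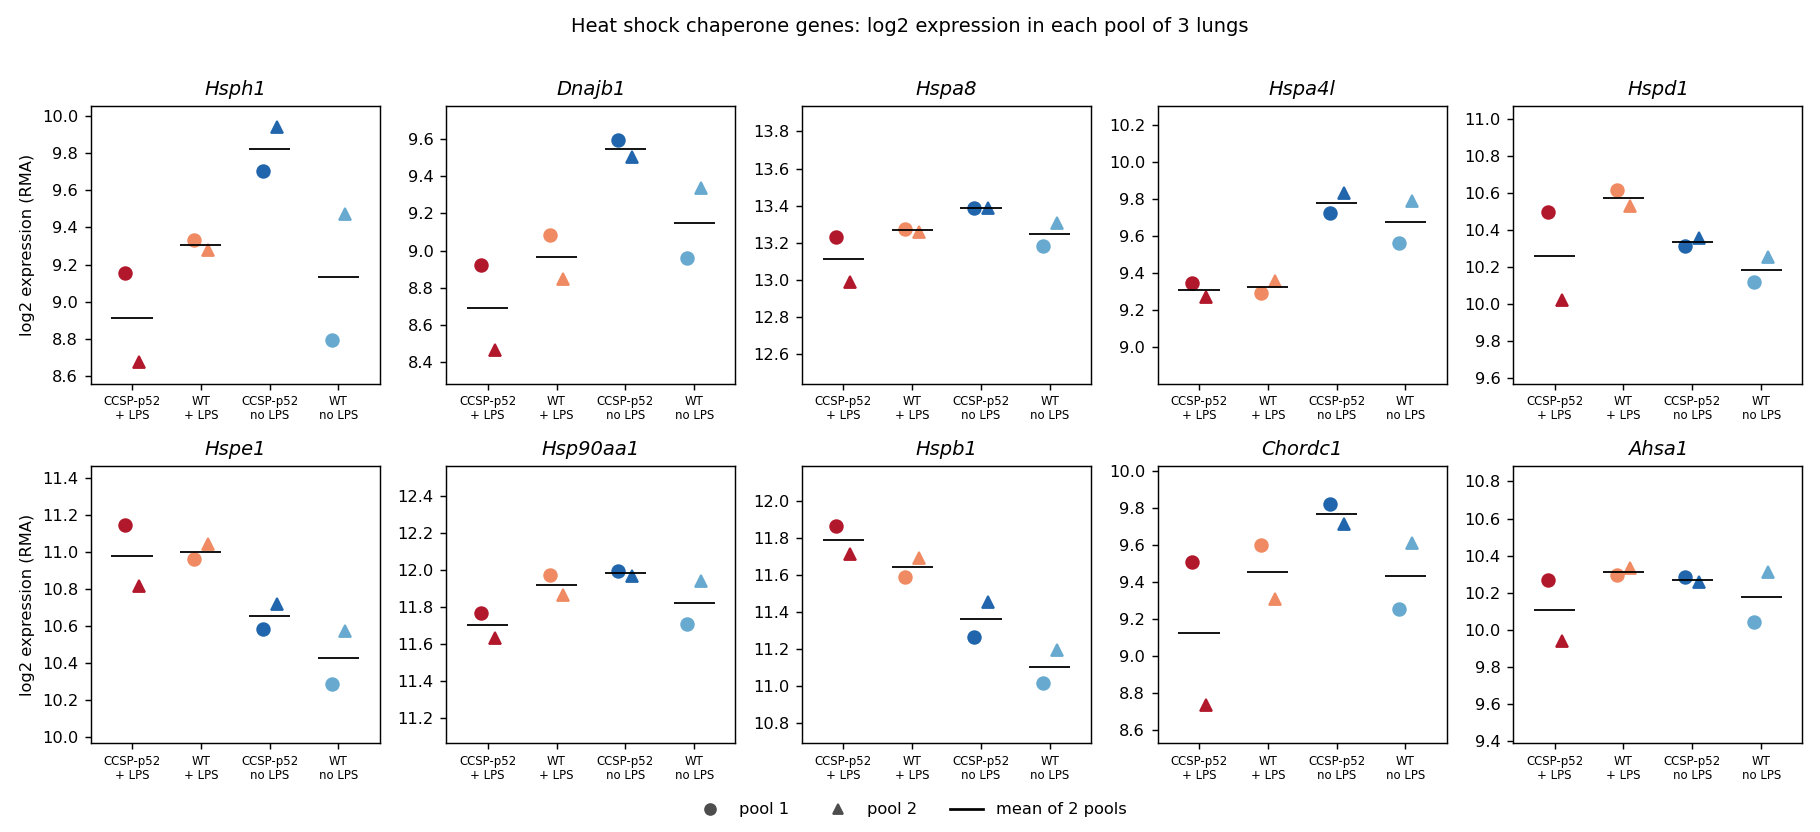
Log2 expression of the 10 heat shock chaperone genes in each pool of 3 lungs, with a black line at the mean of the 2 pools of a group; every panel spans 1.5 log2 units. The CCSP-p52 dox pools lie above both WT dox pools for 8 genes, and CCSP-p52 LPS pool 2 is the lowest array for 8 genes.

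In lungs without LPS, all 10 genes were at a higher mean level in CCSP-p52 mice compared to WT mice, but only Hsph1 reached the cut-off. The median logFC of the 10 genes was 0.19, against -0.0027 over all 18820 genes, of which 9188 were positive. With 1 array left out this median was between 0.081 and 0.31, and it was lowest without WT dox pool 1. In that fit Hspa4l (-0.0095) and Ahsa1 (-0.042) were no longer higher in CCSP-p52 mice. The cut-off, the logFC of at least 0.41 by which the study ranked genes, joined here by an unadjusted p of at most 0.05, was reached by 1 of the 10 genes upward, against 0.569% of all genes, and by 0 of 10 downward, against 0.165%. The pools of the 2 genotypes did not overlap, with CCSP-p52 higher, for 8 of the 10 genes, against 16.5% of all genes, and with CCSP-p52 lower for 0 of 10, against 16.2%. These counts hold for the brightest probe set of each gene, and dimmer probe sets of Hspd1, Hsp90aa1 and Hspb1 differed. Because whole lungs were measured, more RNA per cell and more cells of a type that expresses a gene cannot be told apart.

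Among the HSP70 partners, Hsph1 encodes HSP110, an exchange factor that releases clients from HSP70. Hsph1 was at 9.71 and 9.94 in CCSP-p52 dox pools, against 8.79 and 9.48 in WT dox pools. Both CCSP-p52 pools were above both WT pools, and WT dox pool 1 was far below the other 3. The logFC was 0.69 (SE 0.25, 1.61-fold), which reached the cut-off in limma and was not significant once corrected for all probe sets (adjusted p = 1.00). The call rested on WT dox pool 1 and on both CCSP-p52 dox pools: with WT dox pool 1 left out the logFC was 0.35 and the call was lost, as it was with either of the CCSP-p52 dox pools left out (0.81 for pool 1, 0.57 for pool 2). It was kept without WT dox pool 2 (1.03), where 2 of the 10 genes reached the cut-off, against 0.43% of all genes. Each such fit assumes that the lone pool varies like the other groups.

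Dnajb1 encodes an HSP40, the J-domain partner that delivers clients to HSP70. It was at 9.60 and 9.50 in CCSP-p52 dox pools, against 8.96 and 9.34 in WT dox pools. The pools did not overlap, and WT dox pool 1 was again the lowest. The logFC was 0.40 (SE 0.19), which missed the cut-off. Hspa8, the constitutive HSP70 of the cytosol, was at 13.39 and 13.39 in CCSP-p52 dox pools, against 13.18 and 13.31 in WT dox pools, a logFC of 0.14 (SE 0.11) with no overlap. Hspa4l, a relative of HSP110 best known from mouse testis, was at 9.72 and 9.83 in CCSP-p52 dox pools, against 9.56 and 9.79 in WT dox pools. These pools overlapped, and the logFC was 0.10 (SE 0.11).

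The HSP90 group showed the same order at small sizes. Chordc1, an HSP90 co-chaperone, was at 9.82 and 9.71 in CCSP-p52 dox pools, against 9.25 and 9.61 in WT dox pools, and its logFC of 0.33 (SE 0.26) did not reach the cut-off. Hsp90aa1, the inducible cytosolic HSP90, was at 12.00 and 11.97 in CCSP-p52 dox pools, against 11.71 and 11.94 in WT dox pools, a logFC of 0.16 (SE 0.11). For both genes the CCSP-p52 pools agreed closely and lay just above WT dox pool 2. Ahsa1, which activates the ATPase of HSP90, was at 10.28 and 10.26 in CCSP-p52 dox pools, against 10.04 and 10.31 in WT dox pools. It overlapped, with the smallest logFC of the 10 genes, 0.09 (SE 0.14).

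Of the mitochondrial pair, Hspe1 (HSP10) was at 10.58 and 10.72 in CCSP-p52 dox pools, against 10.29 and 10.57 in WT dox pools, a logFC of 0.22 (SE 0.15). Hspd1 (HSP60) was at 10.31 and 10.36 in CCSP-p52 dox pools, against 10.12 and 10.25 in WT dox pools, a logFC of 0.15 (SE 0.16). Hspb1, the small heat shock protein HSP27, was at 11.27 and 11.46 in CCSP-p52 dox pools, against 11.02 and 11.19 in WT dox pools. Its logFC was 0.26 (SE 0.12). The pools of these 3 genes did not overlap, and none of the 3 differences reached the cut-off.

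Markers of dividing cells moved in the same comparison. All 9 measured genes of the proliferation list were higher on average in CCSP-p52 dox lungs than in WT dox lungs (median logFC 0.57). The cut-off was reached by 5 of them, against 0.569% of all genes. The study drew its list of p52-associated genes from these same arrays, and Top2a of the proliferation list is on it. This rise is therefore not independent evidence. The summed level of the proliferation list was 11.22 and 11.26 in CCSP-p52 dox pools, against 10.74 and 10.49 in WT dox pools. The part of dividing cells in the chaperone values was not tested. In the other direction, all 9 measured markers of cardiac and pulmonary vein muscle were lower on average in CCSP-p52 dox lungs (median logFC -0.35), with no gene at the cut-off. Their summed level was 13.58 and 14.04 in CCSP-p52 dox pools, against 13.92 and 14.34 in WT dox pools. Neutrophil markers summed to 10.68 and 10.64 in CCSP-p52 dox pools, against 11.19 and 10.61 in WT dox pools, and club cell markers summed to 15.32 and 15.26 in CCSP-p52 dox pools, against 15.40 and 15.55 in WT dox pools. WT dox pool 1, the lowest of the 4 arrays for all 10 chaperone genes, had the highest summed levels of neutrophil markers and of T and B cell markers (12.17, against 11.32 to 11.76) among them.

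In lungs with LPS the order was turned for 9 of the 10 genes, though Hspa4l (-0.016) and Hspe1 (-0.022) were near 0. Without WT LPS pool 2, the pool with high muscle and squamous markers, both were positive (0.018 and 0.020). Without CCSP-p52 LPS pool 2, Hspa4l (0.023), Hspe1 (0.14) and Chordc1 (0.056) were positive. None of the 10 reached the cut-off in either direction, against 0.972% of all genes upward and 1.09% downward. Limma gave none of the 10 an unadjusted p under 0.05. The median logFC of the 10 genes was -0.21, against 0.0046 over all genes. Both CCSP-p52 LPS pools lay below both WT LPS pools for 5 of the 10 genes, against 16% of all genes, and above them for 1 of 10, Hspb1, against 15.3%. The size rested on 1 array: without CCSP-p52 LPS pool 2 the median logFC was -0.04, and without CCSP-p52 LPS pool 1 it was -0.33, with 3 of the 10 genes lower at the cut-off, against 6.41% of all genes in the same fit.

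Hsph1 was at 9.16 and 8.67 in CCSP-p52 LPS pools, against 9.33 and 9.28 in WT LPS pools, a logFC of -0.39 (SE 0.25). Hspd1 was at 10.49 and 10.02 in CCSP-p52 LPS pools, against 10.62 and 10.53 in WT LPS pools, a logFC of -0.31 (SE 0.16). Hsp90aa1 was at 11.77 and 11.63 in CCSP-p52 LPS pools, against 11.97 and 11.87 in WT LPS pools, a logFC of -0.22 (SE 0.11). In all 3 the CCSP-p52 pools were the lower ones without overlap, and pool 2 was the lower of the CCSP-p52 pools.

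Hspa8 was at 13.23 and 12.99 in CCSP-p52 LPS pools, against 13.27 and 13.26 in WT LPS pools (logFC -0.16, SE 0.11). Ahsa1 was at 10.27 and 9.94 in CCSP-p52 LPS pools, against 10.30 and 10.33 in WT LPS pools (logFC -0.21, SE 0.14). For both, CCSP-p52 LPS pool 1 was close below the WT pools and pool 2 was well below them. Hspb1 was the exception in direction, at 11.86 and 11.71 in CCSP-p52 LPS pools, against 11.59 and 11.69 in WT LPS pools, a logFC of 0.15 (SE 0.12).

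The other 4 genes overlapped. Dnajb1 was at 8.92 and 8.47 in CCSP-p52 LPS pools, against 9.08 and 8.84 in WT LPS pools (logFC -0.27, SE 0.19). Chordc1 was at 9.51 and 8.74 in CCSP-p52 LPS pools, against 9.60 and 9.30 in WT LPS pools (logFC -0.33, SE 0.26), the widest gap between 2 pools of a group for any of the 10 genes. Hspa4l, at 9.35 and 9.27 in CCSP-p52 LPS pools, against 9.29 and 9.36 in WT LPS pools, and Hspe1, at 11.15 and 10.81 in CCSP-p52 LPS pools, against 10.96 and 11.04 in WT LPS pools, each had a logFC of -0.02.

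**Figure D2:**
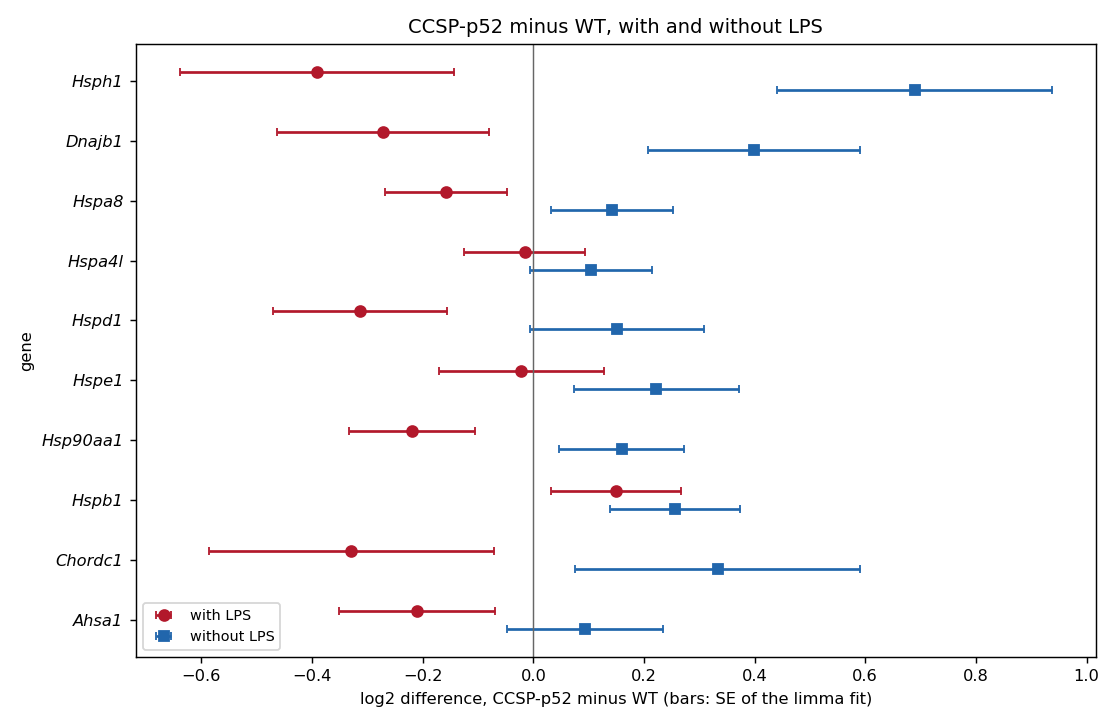
Log2 difference of CCSP-p52 minus WT lungs for each gene, with LPS (circles) and without LPS (squares); bars are the standard error of the limma fit. All 10 squares lie right of 0 and 9 of the 10 circles left of it, and Hsph1 is farthest out on both sides.

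The p52 difference with LPS was below that without LPS for all 10 genes when the difference itself was tested, and 2 genes reached the cut-off: Hsph1 with -1.08 (SE 0.35) and Dnajb1 with -0.67 (SE 0.27). That is 2 of 10 genes downward, against 2.38% of all genes, and 0 of 10 upward, against 1.24%. Neither passed adjustment over all genes (adjusted p = 0.91 for both, limma). The median over the 10 genes was -0.34, against 0.0062 over all genes. Chordc1 (-0.66, SE 0.36), Hspd1 (-0.46, SE 0.22) and Hsp90aa1 (-0.38, SE 0.16) came next in size and missed the cut-off. Ahsa1 (-0.30, SE 0.20), Hspa8 (-0.30, SE 0.16), Hspe1 (-0.24), Hspa4l (-0.12) and Hspb1 (-0.11) followed, and the sign of Hspb1 turned with the mean of its 3 probe sets (0.04).

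These calls depended on single arrays. Hsph1 missed the cut-off without CCSP-p52 dox pool 2 (-0.96) and otherwise kept it when 1 array was left out, between -0.74 and -1.42. Dnajb1 missed it without either of the CCSP-p52 dox pools (-0.62 for pool 1, -0.72 for pool 2), WT dox pool 1 (-0.48), CCSP-p52 LPS pool 2 (-0.44) or WT LPS pool 1 (-0.55). Without CCSP-p52 LPS pool 1, on the other hand, 7 of the 10 genes were lower at the cut-off, in a fit in which 7.06% of all genes were. Without both WT dox pool 1 and CCSP-p52 LPS pool 2, an alternative chosen after the values were seen, Hsph1 was at -0.50, Dnajb1 at -0.26 and the median of the 10 genes at -0.11, and no gene of the 10 was lower at the cut-off. The proliferation list again moved alike: its median was -0.20 with LPS and its difference between LPS states -0.70. For this difference 3 of its 9 genes were lower at the cut-off, against 2.38% of all genes. Its summed level was 12.45 and 11.74 in CCSP-p52 LPS pools, against 12.42 and 12.13 in WT LPS pools, and its part was not tested.

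The 10 genes also moved together within groups. In the CCSP-p52 LPS group pool 2 was below pool 1 for all 10 genes, by a median of 0.33, although 49.3% of all genes were higher in pool 2. In the WT dox group pool 2 was above pool 1 for all 10, by a median of 0.25, against 45.4% of all genes. In the CCSP-p52 dox and WT LPS groups the 10 genes did not lean one way, with pool 2 higher for 6 and for 4 of them. Both gaps between pools of 1 group were larger than the median p52 difference in either LPS state. Among the LPS arrays, CCSP-p52 LPS pool 2 also had the lowest summed levels of neutrophil markers (13.96, against 14.01 to 14.52) and of T and B cell markers (10.87, against 11.29 to 11.90) and the highest of endothelial markers (14.83, against 14.11 to 14.43), and the part of these cells was not tested. Nfkb2 in that pool (10.53) was below both WT LPS pools (10.83 and 10.56), while CCSP-p52 LPS pool 1 (11.28) was above them. Its bearing on the chaperone values was not tested.

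**Figure D3:**
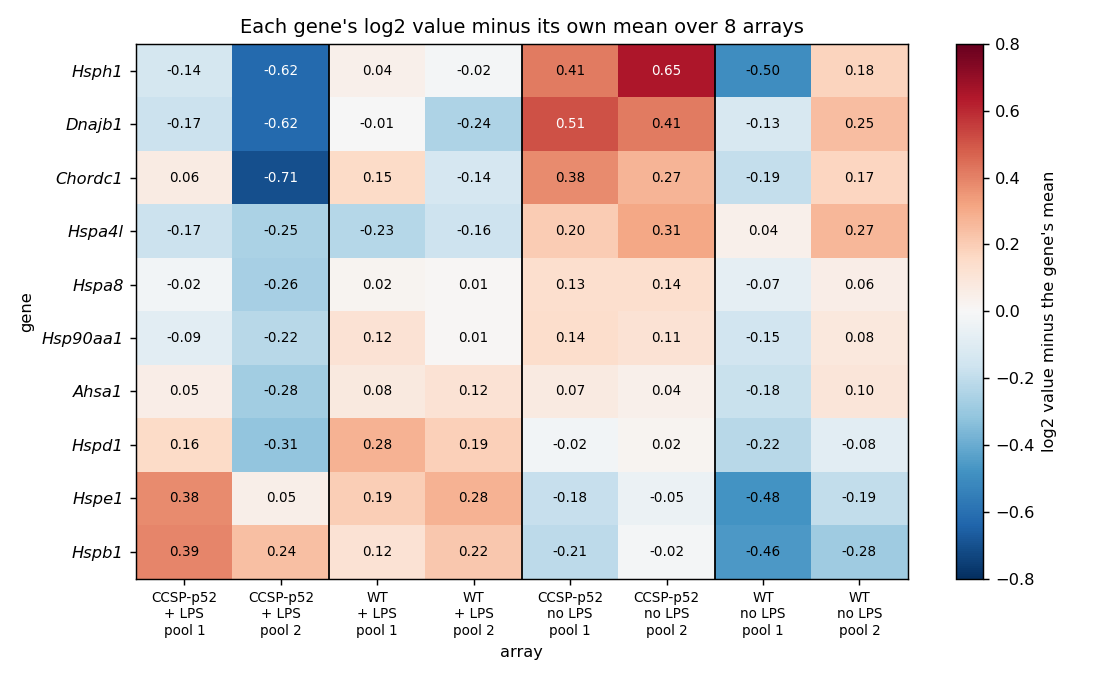
Each gene's log2 value minus its own mean over the 8 arrays, with arrays in columns by group and pool and the value printed in each cell. CCSP-p52 LPS pool 2 is below the mean for 8 of the 10 genes (all but Hspe1 and Hspb1). The bottom rows, Hspe1 and Hspb1, are higher in every LPS pool than in any dox pool. The rows from Hsph1 down to Hsp90aa1 are each highest in a CCSP-p52 dox pool.

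With LPS, mitochondrial Hspe1 and the small heat shock protein gene Hspb1 rose, Hspa4l and Dnajb1 of the HSP70 partners fell, and the other 6 genes did not pass. Over all 8 arrays with genotype as a second factor, 2 of the 10 genes rose at an adjusted p under 0.05, against 13.5% of all genes, and 2 fell, against 20.8%. Hspb1 rose by a logFC of 0.48 (SE 0.08, adjusted p = 0.0032, limma) and Hspe1 by 0.45 (SE 0.11, adjusted p = 0.014), while Hspa4l fell by 0.41 (SE 0.08, adjusted p = 0.0050) and Dnajb1 fell by 0.52 (SE 0.17, adjusted p = 0.048). All 4 LPS pools were above all 4 dox pools for Hspb1 and Hspe1 and below them for Hspa4l. For Dnajb1, WT LPS pool 1 (9.08) was above WT dox pool 1 (8.96), and with the replicate number as a block it did not pass (adjusted p = 0.055, with 0.011 to 0.14 over all settings tried). The calls of Hspb1, Hspe1 and Hspa4l held with any 1 array left out, and that of Dnajb1 held without WT dox pool 1 or WT LPS pool 1 and was lost without any of the other 6.

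In CCSP-p52 lungs alone, Dnajb1 fell by 0.86 (SE 0.19, 1.81-fold lower, adjusted p = 0.041) and Hspa4l fell by 0.47 (SE 0.11, 1.38-fold lower, adjusted p = 0.045), 2 of 10 genes against 5.03% of all, and none rose, against 4.31% (1 of the 10, Hspb1, had a positive logFC at an unadjusted p under 0.05). Hsph1 had -0.91 (SE 0.25, adjusted p = 0.066), Hspb1 0.43 (SE 0.12, adjusted p = 0.067), Chordc1 -0.64 (SE 0.26, adjusted p = 0.16) and Hspe1 0.33 (SE 0.15, adjusted p = 0.20), all short of the threshold. Hspa4l lost its call without any 1 of the 8 arrays (-0.52 to -0.42), and Dnajb1 kept it only without CCSP-p52 LPS pool 1 (-1.08) or pool 2 (-0.63). Both were lost when each array was centred on its median (-0.83 for Dnajb1, -0.44 for Hspa4l).

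In WT lungs alone, Hspe1 rose by 0.57 (SE 0.15, 1.49-fold, adjusted p = 0.037) and Hspb1 by 0.53 (SE 0.12, 1.45-fold, adjusted p = 0.023), 2 of 10 genes against 8.07% of all. None of 10 fell, against 14%: limma gave 1 member, Hspa4l, a negative logFC with an unadjusted p under 0.05 (-0.35, SE 0.11, adjusted p = 0.063), and with the replicate number as a block it passed (adjusted p = 0.049, with 0.046 to 0.32 over all settings tried). Hspd1 had 0.39 (SE 0.16, adjusted p = 0.12), and both WT LPS pools lay above both WT dox pools. Without either WT dox pool or either WT LPS pool neither Hspe1 (0.43 to 0.71) nor Hspb1 (0.45 to 0.62) passed, and Hspe1 was also lost without either CCSP-p52 dox pool, which leaves its logFC as it was. Whether the LPS effect differs between genotypes is the same contrast as the difference of the p52 effect given above, where Hsph1 and Dnajb1 reached the cut-off and no gene passed adjustment.

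**Figure D4:**
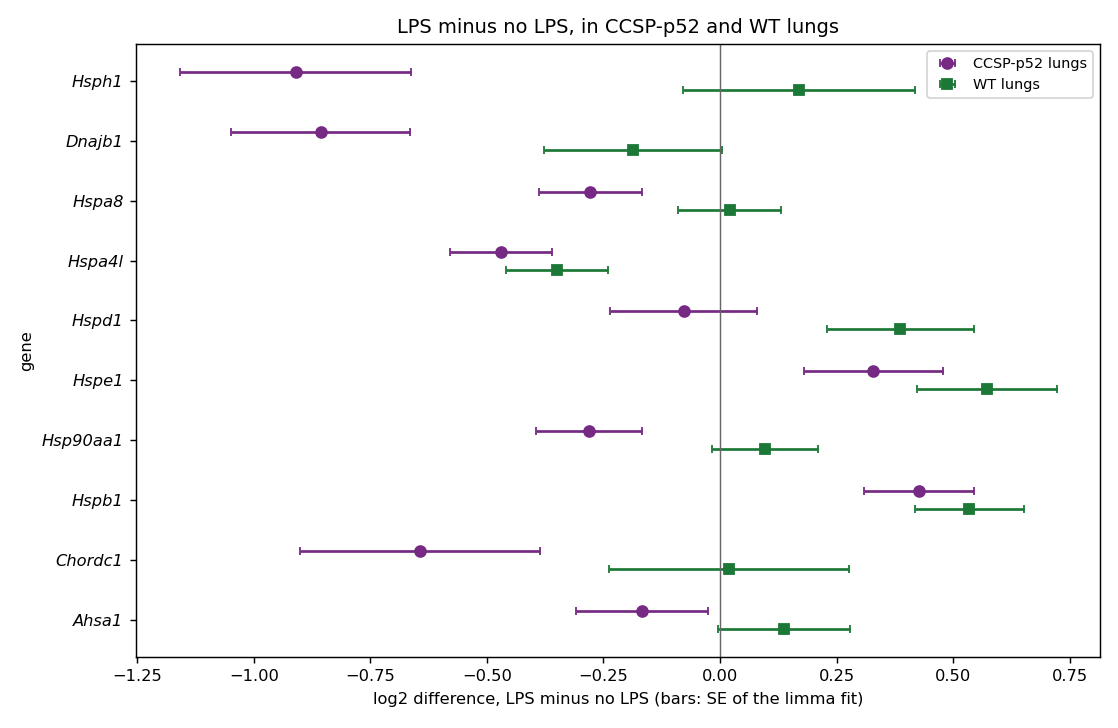
Log2 difference of LPS minus no LPS for each gene in CCSP-p52 lungs (circles) and in WT lungs (squares); bars are the standard error of the limma fit. Hspe1 and Hspb1 are right of 0 and Dnajb1 and Hspa4l left of it in both genotypes, and for all 10 genes the circle lies left of the square.

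Markers of cell types moved with LPS as well. Neutrophil markers rose in all 10 of 10 genes, with a median logFC of 3.63 over all arrays, and all 9 proliferation markers rose, with a median of 1.24. Endothelial markers had a median of -0.78, and 5 of 6 fell at an adjusted p under 0.05. The part of these cells in the chaperone values was not tested.

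The additive model, which averages the p52 effect over both LPS states, gave small values for every gene. None of the 10 reached the cut-off, against 0.228% of all genes upward and 0.0425% downward, and the median was 0.02. Limma gave 1 of the 10 an unadjusted p under 0.05: Hspb1, higher in CCSP-p52 lungs in both LPS states, had the largest logFC, 0.20 (SE 0.08, adjusted p = 1.00). Hsph1 had 0.15 (SE 0.25) and Dnajb1 0.06 (SE 0.17), in which the positive difference without LPS and the negative one with LPS are averaged.

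The background shares moved with the scaling of the arrays. With each array centred on its median, 51.2% of the genes called for LPS in WT lungs were higher, against 36.5% as deposited. For the difference of the p52 effect between LPS states the share of calls that were higher was 17.5% after centring and 48.5% after renewed quantile normalization, against 34.3% as deposited. With LPS it was 33.6% and 60.8%, against 47.2%, and over all arrays 73.6% after centring, against 84.3%. Under both rescalings the 10 genes kept the signs given here for p52 in each LPS state, for its difference and for LPS, except Ahsa1 for LPS over all arrays.

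Which genes moved together was measured as the mean absolute difference between 2 genes' profiles, each profile being the 8 log2 values minus their mean. Hspa8 and Hsp90aa1 were the closest pair (0.04), followed by Hspe1 and Hspb1 (0.06) and by Hsp90aa1 and Ahsa1 (0.06). Dnajb1 and Hspb1 were farthest apart (0.50). Genes with a small range are close to each other by this measure, so that Hsph1, with a range of 1.27, was closest to Dnajb1 at 0.13. Hspd1 and Hspe1, whose promoters share the element shown above, were at 0.17, with Hspd1 closer to Ahsa1 (0.09).

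The 5 other genes nearest to the mean profile of the 10 were Olfr323 (0.041), Serpinh1 (0.050), Otud7a (0.052), Zp3r (0.053) and Cdh24 (0.057), over 8 arrays. Serpinh1 encodes HSP47, the collagen chaperone of the endoplasmic reticulum. It was at 10.12 and 9.88 in CCSP-p52 LPS pools, against 10.21 and 10.15 in WT LPS pools, and at 10.33 and 10.42 in CCSP-p52 dox pools, against 10.07 and 10.22 in WT dox pools. Its pools did not overlap between genotypes in either LPS state, with CCSP-p52 lower with LPS and higher without, as for Hsph1. Such a likeness follows from how the 5 genes were picked, by their profile on these same arrays, and is not further evidence. Olfr323, an olfactory receptor gene, had values between 4.87 and 5.32, near the low end of the array's range.

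Other chaperones were read from 8 lists of 97 genes with their regulators. None of the 97 reached the cut-off for the p52 effect with LPS or without LPS, with medians of 0.02 in both, and 64 of 97 had a positive logFC without LPS. Over all arrays 1 of the 97 reached it upward, against 0.228% of all genes, and 0 downward, against 0.0425%. The 1 was Fkbp5, an immunophilin that binds HSP90, with a logFC of 0.56 (SE 0.19, adjusted p = 1.00). Fkbp5 was at 10.18 and 10.82 in CCSP-p52 LPS pools, against 10.02 and 10.04 in WT LPS pools, and at 8.26 and 9.08 in CCSP-p52 dox pools, against 7.97 and 8.07 in WT dox pools, so that the CCSP-p52 pools were the higher ones in both LPS states. The largest value with LPS was that of the small heat shock protein gene Hspb6, named after its values were seen, at -0.63 (SE 0.50): it was at 9.69 and 9.70 in CCSP-p52 LPS pools, against 9.43 and 11.22 in WT LPS pools, the last of them the pool with high muscle markers. The difference of the p52 effect between LPS states reached the cut-off for 4 of the 97. It was lower for Fkbp4 (-0.42, SE 0.13) and Dnaja1 (-0.44, SE 0.18) and higher for Hscb (0.45, SE 0.13) and Vbp1 (0.49, SE 0.20). That is 2 of 97 lower, against 2.38% of all genes, and 2 of 97 higher, against 1.24%, so the counts were near these shares. Dnaja1 and Vbp1 were named after their values were seen. Dnaja1, another HSP40 of the cytosol, was at 10.08 and 10.03 in CCSP-p52 LPS pools, against 10.19 and 10.16 in WT LPS pools, and at 10.74 and 10.64 in CCSP-p52 dox pools, against 10.20 and 10.54 in WT dox pools, with no overlap in either LPS state, as for Hsph1. Fkbp4, an immunophilin that works with HSP90 on steroid receptors, was at 8.90 and 8.95 in CCSP-p52 LPS pools, against 9.12 and 9.05 in WT LPS pools, and at 9.65 and 9.76 in CCSP-p52 dox pools, against 9.45 and 9.45 in WT dox pools.

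Of the lists, the chaperones of the endoplasmic reticulum came nearest to the 10 genes in direction. With LPS 2 of 15 had a positive logFC, with a median of -0.11, and without LPS 13 of 15, with a median of 0.07, and none reached the cut-off in either. The 14 other HSP70 and HSP110 genes and exchange factors had medians of 0.06 with LPS and 0.04 without, the 14 J-domain proteins 0.09 with and 0.01 without, and the 15 HSP90 genes and co-chaperones 0.02 with and 0.03 without. Of these 15, 9 were positive with LPS and 10 without. Stip1 (-0.36 with, 0.28 without, SE 0.25) and Cacybp (-0.30 with, 0.24 without, SE 0.19) turned as most of the 10 genes did. Both were named after their values were seen, and both missed the cut-off. The 13 mitochondrial chaperones and proteases had 0.06 with and -0.02 without, and the 7 other small heat shock proteins -0.08 with and -0.02 without. The 6 heat shock factors and regulators had 0.06 in both. Hspa1a and Hspa1b, the inducible HSP70 genes, and Hsf1 were not analysed here.

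**Figure D5:**
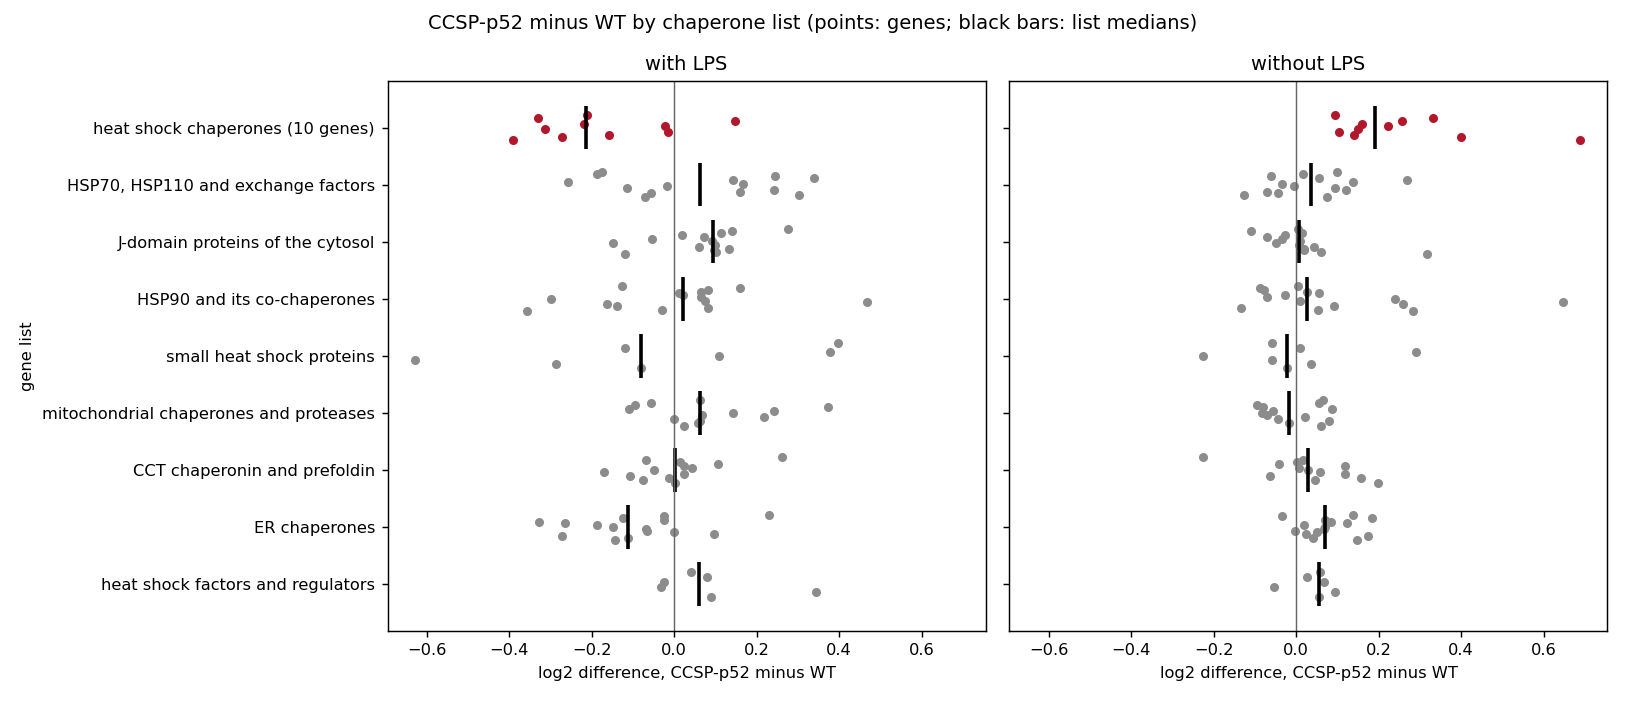
Log2 difference of CCSP-p52 minus WT for every gene of the 10 heat shock chaperones (top row) and of 8 other lists, with LPS (left) and without LPS (right); black bars are list medians. The median of the top row is -0.21 with LPS and 0.19 without, and the other medians lie between -0.11 and 0.09.

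Over all arrays LPS changed 16 of the 97 genes upward (16.5%, against 13.5% of all genes) and 14 downward (14.4%, against 20.8%) at an adjusted p under 0.05. Among the HSP90 partners, Fkbp5, known to be induced by glucocorticoids, rose by 1.92 (SE 0.19, adjusted p = 0.00037), while Fkbp4 fell by 0.57 (SE 0.10, adjusted p = 0.0031) and Cdc37l1 fell by 0.33 (SE 0.11). The J-domain genes Dnajb4 and Dnaja4 fell by 0.76 and 0.73 (SE 0.09 and 0.10), beside Dnajb1, and Dnajc2 rose by 0.34 (SE 0.07). Of 13 genes of the CCT chaperonin and prefoldin, which fold actin and tubulin, 5 rose (38.5%) and none fell, led by Tcp1 (0.42), Cct3 (0.46) and Cct2 (0.37). Of 15 chaperones of the endoplasmic reticulum, 7 rose (46.7%), among them Sdf2l1 (1.25) and Pdia3 (0.42), and 1 fell, Sil1, which fell by 0.40. In the remaining lists Hspa2 and Hspa12a fell by 0.41 and 0.31, Bag1 fell by 0.28, Grpel2 fell by 0.40, Hspa9 rose by 0.21 and Hsf4 fell by 0.44. No small heat shock protein other than Hspb1 passed.

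The other probe sets of the same genes give a check within the arrays. Hspe1 and Hspb1 each had a second bright probe set that passed for LPS in WT lungs too (logFC 0.57, adjusted p = 0.035, and 0.54, adjusted p = 0.023). Hspd1 had a second probe set with a difference of the p52 effect of -0.51 (SE 0.27), and of the 2 others of Hsp90aa1 the dimmer one reached the cut-off for that difference (-0.49, SE 0.18). One probe set of Hspa8 departed from the others on WT LPS pool 2, at 12.14, against 13.15 on WT LPS pool 1. Its p52 difference with LPS was 0.01 (SE 0.30) with overlapping pools, against -0.16 and -0.19 for the other 2. The dimmest of Hspb1 did not follow the other 2, with a logFC of -0.14 for LPS in WT lungs and of -0.04 for p52 without LPS. The second probe set of Hspd1 overlapped without LPS, at 9.76 and 9.62 in CCSP-p52 dox pools, against 9.44 and 9.65 in WT dox pools. So did the dimmest of Hsp90aa1, at 11.59 and 11.44 in CCSP-p52 dox pools, against 11.26 and 11.48 in WT dox pools. In that comparison the remaining dimmer probe sets kept CCSP-p52 higher without overlap. RefSeq lists 5 pseudogenes named after Hspd1 and 7 after Hspe1, and those of the other genes were not counted. Which locus a probe set was designed on is not given in the annotation used. The signal of a gene and of its copies may therefore be mixed in these values.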

How the data were processed

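Whole-lung RNA was measured on 8 Affymetrix Mouse Gene 1.0 ST arrays, each with the pooled RNA of 3 mice. The deposited values are log2 expression levels per probe set, which the authors made by Robust Multichip Average (RMA): background correction, quantile normalization over the arrays and summary of the probes. The processing notes also name limma 3.20.8. Such equalized arrays cannot show a difference in total RNA, and precision here is set by how many arrays there are. Scanner files were not used here.

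Of 35556 probe sets, 21218 (59.7%) had 1 gene symbol in the platform annotation, which may be of another array version, 1881 had several and 12457 had none or no entry. Symbols were updated through the gene identifier. Each of 18820 genes was read from its brightest probe set, and 1386 had more than 1. No column was left unmapped.

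Tests used limma 3.58.1 in R 4.3.3 on all probe sets with 1 symbol, with p-values adjusted by Benjamini-Hochberg over all of them. The genotypes were compared over all arrays by an additive model of genotype and LPS, and by a model of the 4 groups. The written methods of the study name both factors in 1 model and do not say whether it had a term for their combination. With such a term its p52 coefficient could be the effect without LPS. The additive values given here therefore need not be those of the study. The p52 calls used the logFC cut-off of 0.41 that the study gives, with an unadjusted p of at most 0.05 added here, and the LPS calls an adjusted p under 0.05. With 2 pools on each side, the smallest two-sided p of an exact permutation test is p = 0.33, so none was used. The steps were tested on simulated data.

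The members and gene lists were chosen with earlier results of these data known, and Hsph1 is on the gene list that the study drew from these arrays, so its call is not independent evidence. Of each other chaperone list up to 3 genes past a call were named, by p, and the 5 genes nearest to the mean profile of the members. Pools carry the numbers 1 and 2 in every group. In all 6 pairs of groups, pools with the same number departed from their groups alike (r = 0.14 to 0.35 over all probe sets with 1 symbol). The number was therefore also tried as a replicate block, although no source used here says what such pools shared. Alternatives changed the probe sets tested, the probe set of a gene, the moderation, the array weights, the scaling, the model and the arrays left out.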

Additional observations from a re-analysis of the deposited data

Results flagged for a closer look

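For 2 of the 10 genes the p52 effect differed between LPS states at the cut-off when the difference itself was tested. Both were lower, against 2.38% of all genes. For Hsph1 it was -1.08 (SE 0.35): the CCSP-p52 pools were the lower ones with LPS and the higher ones without. For Dnajb1 it was -0.67 (SE 0.27), from a logFC of -0.27 with LPS and of 0.40 without, and its pools overlapped with LPS. Neither passed adjustment over all probe sets (adjusted p = 0.91 for both, limma), and the arrays on which each value rests are named in the account of that difference.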

How the results depend on the processing

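Each result was recomputed with 1 choice changed at a time. Of the counts and medians over the 10 genes, 335 were rated as unchanged, 13 were stronger and 45 weaker. Another 3 medians moved by more than the spread between pools. Medians were rated without regard to sign, and some that changed sign count as unchanged. With 1 array left out, the median p52 effect over all arrays was -0.087 to 0.13 (0.023 with all arrays). The median LPS effect in WT lungs was -0.031 to 0.24 in such fits (0.12 with all arrays). For single genes, 990 kept direction and call, 33 gained a call, 66 lost one and 41 changed sign. The cause of these changes was not tested. With 2 pools per group, a logFC between groups had a median SE of 0.13, and a difference of 2 such values 0.18, which limits what these arrays can show for the small values given for most of the 10 genes.

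With single arrays left out, the ranges were as follows. For the p52 effect without LPS, Hspa4l was at -0.0095 to 0.22 and Ahsa1 at -0.042 to 0.23. With LPS, the median was -0.33 to -0.040, and Hspa4l was at -0.055 to 0.023, Hspe1 at -0.19 to 0.14 and Chordc1 at -0.71 to 0.056. For the difference between LPS states 0 to 7 genes were lower at the cut-off. For LPS in CCSP-p52 lungs 0 to 1 genes rose and 0 to 2 fell, and Hspd1 was at -0.31 to 0.16. For LPS in WT lungs 0 to 3 genes rose and 0 to 1 fell, with Hsph1 at -0.17 to 0.51, Dnajb1 at -0.37 to 0.0021, Hspa8 at -0.042 to 0.084, Hsp90aa1 at -0.021 to 0.21 and Chordc1 at -0.16 to 0.20. For LPS over all arrays 1 to 2 genes fell, and Ahsa1 was at -0.10 to 0.081.

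Without both WT dox pool 1 and CCSP-p52 LPS pool 2, a setting added after the data were seen, no gene (0) was higher at the cut-off for p52 without LPS, and Hspa4l (-0.0095) and Ahsa1 (-0.042) changed sign. With LPS the median was -0.040 and Hspa4l (0.023), Hspe1 (0.14) and Chordc1 (0.056) changed sign. For the difference, 0 genes were lower at the cut-off, the median was -0.11, and Hspa4l (0.033), Hspe1 (0.063) and Hspb1 (0.054) changed sign. For LPS in CCSP-p52 lungs 1 gene rose, and Hspd1 (0.16) changed sign. In WT lungs 0 rose, and Hsph1 (-0.17), Hspa8 (-0.042), Hsp90aa1 (-0.021) and Chordc1 (-0.16) changed sign.

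Without both second LPS pools, Hspa4l (0.057) and Hspe1 (0.19) changed sign for p52 with LPS. For the difference 0 genes were lower at the cut-off and Hspb1 was at 0.016. For LPS, 2 genes rose and 1 fell in CCSP-p52 lungs, with Hspd1 at 0.16, and 1 fell over all arrays, with Ahsa1 at 0.058.

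With array weights, 1 gene was higher at the cut-off for p52 over all arrays, and for LPS 0 fell in CCSP-p52 lungs, 1 in WT lungs and 1 over all arrays, with Ahsa1 at 0.042. With the mean of all probe sets of a gene, Hspb1 was at 0.042 for the difference, and for LPS in WT lungs 1 gene rose and Hspa8 was at -0.037. With all probe sets, named or not, 0 genes fell with LPS in CCSP-p52 lungs, 1 rose in WT lungs and 1 fell over all arrays. With probe sets above the median signal, 1 gene rose with LPS in CCSP-p52 lungs and 1 fell in WT lungs. With centred arrays, 0 genes fell with LPS in CCSP-p52 lungs and 1 over all arrays, with Ahsa1 at 0.043. With quantile normalization repeated, 1 fell in CCSP-p52 lungs and 1 over all arrays, with Ahsa1 at 0.00055. With the 4 arrays of CCSP-p52 lungs alone, 0 fell.

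With the replicate number as a block, 1 gene fell with LPS in WT lungs (Hspa4l) and 1 over all arrays, where Dnajb1 was lost. The replicate block changed no other call of the 10 genes.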
